A study of Mus musculus with 52 samples.

Results

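The 35 genes described here are mouse genes of the cell cycle and of DNA replication, taken by name and followed through all 52 libraries of a bulk RNA sequencing series on an embryo model built from totipotent-like cells. They comprise 9 genes of G1 and its exit, 8 genes that prepare and start replication, and 18 genes of G2 and mitosis. All 35 were found among the 55291 genes of the counts table, and all 35 were among the 25056 genes that passed the filter on low counts.

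In G1, D-type cyclins (Ccnd1, Ccnd2, Ccnd3) pair with the kinases Cdk4 and Cdk6 and inactivate retinoblastoma proteins, which frees E2F factors such as E2f1 to switch on E-type cyclins and replication genes. Cdc6 and Cdt1 load the ring-shaped helicase of Mcm2, Mcm3, Mcm4, Mcm5, Mcm6 and Mcm7 onto origins, and mitotic genes such as Ccnb1, Cdk1 and Plk1 are transcribed later, in G2. Mouse pluripotent stem cells are known for a short G1 phase.

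All groups were labelled wild type. The EPSCs (extended pluripotent stem cells, line mc6-1/Mu-mClover3-10#) grew in LCDM medium and were sequenced as libraries 1 and 2 in a first set and libraries 3 and 4 in a second. In the first set, EPSCs also received for 2 days CHIR-99021 (CHIR below, an inhibitor of the kinase GSK3), or CHIR together with CD1530 (which activates retinoic acid receptor gamma), Elvitegravir (an inhibitor of the HIV integrase) or PD0325901 (an inhibitor of the kinase MEK), or the totipotency medium, which gives the group S1. The treatment labels do not name the medium in which CHIR and its additions were given, nor what LCDM contains. In comparisons of these groups with EPSC, the agent and a change of medium cannot be told apart. In the second set, EPSCs of the same line had spent 25 or 38 passages in totipotency medium (P25 and P38). S2 was made by culturing aggregates of S1 cells in a medium called 4C-64C for 1 day, and S3 by culturing S2 aggregates in it for 1 day. Both stages were also made without 8Br-cAMP (a cyclic AMP analogue), Birabresib (an inhibitor of BET bromodomain proteins), CHIR or CD1530. S5 started from a day 1 stage called S4, which is not analysed here, and spent 3 days on Aggrewell plates in peri-implantation medium. Its omission groups lacked Activin A, BMP4, FGF4 or XAV 939 (a tankyrase inhibitor). Mouse embryonic stem cells (mESCs, line 2i-0606-td-ES) were kept in 2i/L medium or moved to totipotency medium for 2 days (mESC-S1). Each group held 2 libraries and EPSC held 4. No label tells if paired libraries were grown as separate cultures, so the p-values measure only the spread between these libraries, and 1 cell line stands behind every group but mESC and mESC-S1.

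Library totals ran from 16600000 to 108000000 counts with a median of 41200000. In 46 libraries 66.8% to 80.5% of low counts were even numbers, against 40.7% to 42% in the other 6 (EPSC libraries 3 and 4, P25 and P38). The comparisons of S2 with P25 and of mESC with EPSC libraries 3 and 4 cross that line, so this difference in the counts and the groups cannot be told apart in them. Summed markers of pluripotent cells were 3640 to 3750 counts per 1000000 (CPM) in EPSC libraries 1 and 2 and 896 to 967 CPM in S1, while summed 2-cell markers, all 6 of which had 0 counts in EPSC libraries 1 and 2, reached 1250 to 1330 CPM in S1. Feeder fibroblast markers summed to 2200 to 2310 CPM in mESC and 1070 CPM in mESC-S1. They summed to 743 to 755 CPM in EPSC libraries 3 and 4, 1330 to 1340 CPM in P25 and 294 to 303 CPM in S2. Their part in the comparisons of these groups was not tested. Mitochondrial transcripts summed to 8980 and 7650 CPM in S3 and to 14600 CPM or more in every other library. In bulk RNA, fewer cells of a type and less RNA per cell cannot be told apart.

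Promoter sequence is shown for 6 members: 3 helicase subunits, 2 mitotic genes and Aurkc, the gene with the widest fold range apart from Cdt1. The letters are the RefSeq bases just before the gene start on the GRCm38.p6 build (mm10), read 5′ to 3′ on the gene's own strand. Capitals mark an E2F word (TTTCCCGC, TTTCGCGC, TTTGCCGC or TTTGGCGC), a CHR word (TTTGAA or TTTAAA, the element of late cell cycle genes) or a CCAAT box, on either strand, so that ATTGG is a CCAAT box on the other strand and overlapping words run together. Mcm2 lies at chr6:88898781-88899030 on the minus strand, Mcm5 at chr8:75109259-75109508 on the plus strand and Mcm6 at chr1:128359706-128359955 on the minus strand. Plk1 lies at chr7:122159185-122159434 on the plus strand, Mki67 at chr7:135716380-135716629 on the minus strand and Aurkc at chr7:6995135-6995299 on the plus strand.
Mcm2: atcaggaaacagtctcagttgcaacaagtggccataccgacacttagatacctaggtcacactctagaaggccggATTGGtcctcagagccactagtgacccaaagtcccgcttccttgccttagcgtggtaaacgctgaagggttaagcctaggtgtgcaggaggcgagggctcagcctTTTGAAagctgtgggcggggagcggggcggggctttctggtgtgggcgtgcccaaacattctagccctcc
Mcm5: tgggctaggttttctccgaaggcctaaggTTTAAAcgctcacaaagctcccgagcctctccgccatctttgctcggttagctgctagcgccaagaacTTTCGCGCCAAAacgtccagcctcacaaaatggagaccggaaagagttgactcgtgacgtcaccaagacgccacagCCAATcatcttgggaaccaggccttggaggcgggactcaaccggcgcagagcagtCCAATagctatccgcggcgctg
Mcm6: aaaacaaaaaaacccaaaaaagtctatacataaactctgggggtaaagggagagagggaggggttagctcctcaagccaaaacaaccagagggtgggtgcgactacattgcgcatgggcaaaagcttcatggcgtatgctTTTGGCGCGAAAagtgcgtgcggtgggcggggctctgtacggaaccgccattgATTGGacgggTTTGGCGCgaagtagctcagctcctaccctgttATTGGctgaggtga
Plk1: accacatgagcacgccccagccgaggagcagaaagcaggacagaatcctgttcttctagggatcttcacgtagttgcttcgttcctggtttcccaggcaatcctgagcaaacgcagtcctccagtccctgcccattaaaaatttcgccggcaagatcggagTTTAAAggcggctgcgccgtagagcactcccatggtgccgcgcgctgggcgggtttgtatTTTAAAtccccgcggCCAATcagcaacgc
Mki67: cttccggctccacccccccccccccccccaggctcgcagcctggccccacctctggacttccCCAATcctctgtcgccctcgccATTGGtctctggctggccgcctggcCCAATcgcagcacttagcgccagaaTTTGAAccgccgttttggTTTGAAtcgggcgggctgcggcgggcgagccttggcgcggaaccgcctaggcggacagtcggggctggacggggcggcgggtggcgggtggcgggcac
Aurkc: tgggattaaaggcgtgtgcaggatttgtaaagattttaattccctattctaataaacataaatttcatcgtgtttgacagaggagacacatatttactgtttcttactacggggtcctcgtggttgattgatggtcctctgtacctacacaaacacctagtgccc
The Mcm2 window held no E2F word and 1 CHR word. The Mcm5 window held 2 E2F words and 1 CHR word, and the Mcm6 window 3 E2F words and no CHR word. The Plk1 and Mki67 windows held no E2F word and 2 CHR words each. Of the 250 Plk1 bases, 217 also lie in exons of other genes. For Mcm5 and Mcm6 the bases checked after the RefSeq start were not found in a GENCODE M21 transcript of the gene. The Aurkc window, ended where the gene's first exon begins in GENCODE M21, held no word of any kind. RefSeq promoters were matched for 28 of the 35 genes. An E2F word stood in the 250 bases before the start of 4 of 7 replication genes (57.1%), 1 of 15 mitotic genes and 1 of 6 G1 genes, against 1.86% of all 32851 promoters. A CHR word stood in 9 of 15 mitotic genes (60.0%), 2 of 7 replication genes and 1 of 6 G1 genes, against 25.2% of all promoters, and a CCAAT box in 13 of 15 mitotic genes (86.7%) and 5 of 7 replication genes, against 33.8%. These matches describe letters only. A word that is missing says nothing about the factor.

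A gene is called here when edgeR's quasi-likelihood test gave a Benjamini-Hochberg adjusted p below 0.05 over all tested genes together with a log2 fold change of at least 1 in either direction. In S1 against EPSC, 11 of the 34 members with counts were called, near the 27.8% called among all tested genes, so that the number of calls by itself is no result about these genes. CHIR alone against EPSC called 2 of 34 members (18.7% of all genes), CHIR plus CD1530 against CHIR 4 of 34 (16.7%), CHIR plus PD0325901 against CHIR none (4.51%), CHIR plus Elvitegravir against CHIR none (0.00798%) and S1 against CHIR plus CD1530 none (11.3%). S1 and CHIR were both set against EPSC libraries 1 and 2, and the 3 additions against the same CHIR pair. The map of log2 changes shows these comparisons gene by gene. Over all 30 comparisons 19 of the 35 genes (54.3%) were called at least once, below the 64.2% of all tested genes: 8 of 9 G1 genes, 5 of 8 replication genes and 6 of 18 mitotic genes.

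**Figure D1:**
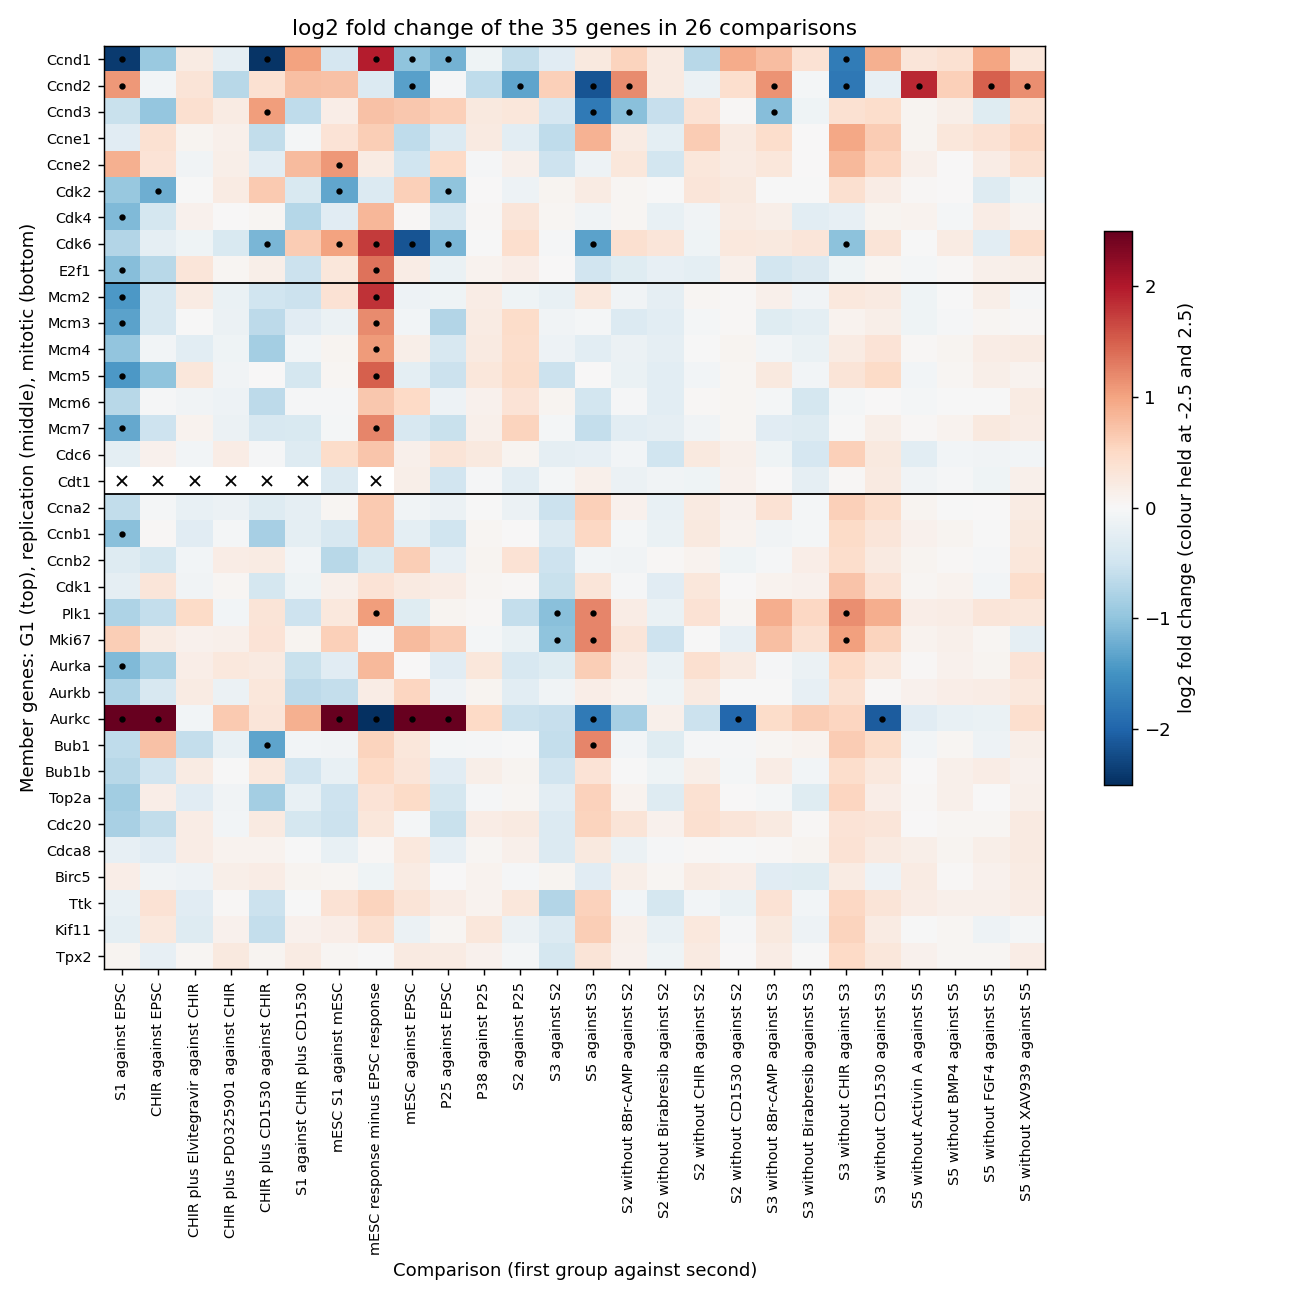
Rows are the 35 genes in the order G1, replication and mitotic, columns are the 26 comparisons, and colour is the fitted log2 fold change of the first group over the second, held at -2.5 and 2.5. Dots mark the genes called by edgeR and crosses mark cells where Cdt1 had 0 counts. The column of S1 against EPSC holds 11 dots, the columns of added Elvitegravir and PD0325901 none.

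Ccnd1 (chromosome 7, 144929931 to 144939925, minus strand), the cyclin that couples growth signals to Cdk4 and Cdk6, had the largest called decrease of the list on entry into S1. It stood at 142 and 143 CPM in EPSC libraries 1 and 2 and at 27 and 27.5 CPM in S1, so that the pairs lay far apart. The log2 fold change was -2.39 ± 0.11 (SE; adjusted p = 5.5e-20). Of its exonic bases 23.4% also lie in a gene on the opposite strand, and the library kit as described does not mark strand, so reads of the pair cannot be told apart.

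Under CHIR alone Ccnd1 stood at 84.7 and 64.9 CPM, and with CD1530 added at 14.1 and 13.3 CPM, the lowest values of the first set. The step from CHIR to CHIR plus CD1530 was -2.45 ± 0.11 on the log2 scale (adjusted p = 3e-19). With Elvitegravir added it stood at 90.5 and 81.4 CPM and with PD0325901 at 66.2 and 61.9 CPM, and neither addition gave a call. S1 lay above CHIR plus CD1530 in both libraries, by just under 1 on the log2 scale, and was not called. Summed extraembryonic endoderm markers moved along these arms as well: 483 to 514 CPM in EPSC libraries 1 and 2 and 7180 to 7250 CPM in CHIR plus CD1530. Their part in the cyclin result was not tested.

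The other D-type cyclins took different paths in the same libraries. Ccnd2 was at 23.2 and 26.5 CPM in EPSC libraries 1 and 2 and at 49.3 and 55.5 CPM in S1, a rise of 1.08 ± 0.17 (log2; adjusted p = 8.8e-07) that was 0.99 without the second S1 library. EPSC libraries 3 and 4, however, had 61.8 and 65 CPM, above S1, so the pairs of EPSC libraries bracket S1. With all 4 EPSC libraries pooled the log2 difference was 0.25 and the call was lost. Ccnd3 was at 108 and 117 CPM in EPSC libraries 1 and 2, 69.9 and 44.9 CPM under CHIR and 123 and 115 CPM under CHIR plus CD1530, a rise over CHIR of 1.05 ± 0.12 (log2; adjusted p = 8.6e-09) that was 0.79, and not called, without the lower CHIR library.

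Levels of the 3 cyclins can be set side by side per kilobase of merged exon. Ccnd1 made up 67.1% and 65.3% of the summed D-type cyclin level per kilobase in EPSC libraries 1 and 2, 28.6% and 29.1% in S1 and 14.9% and 14.5% in CHIR plus CD1530. Ccnd3 made up 27.4% and 28.6%, 45.2% and 41.6%, and 69.9% and 67.2% in the same groups. In the second-set EPSC libraries, however, Ccnd3 made up 40.9% and 39.4%, close to S1, and Ccnd1 made up 48.3% and 49.5%. The size of the shift in S1 therefore depends on the EPSC pair used. By this measure the leading D-type cyclin differed between EPSC libraries 1 and 2 and both treated groups, in each library. The measure divides by all annotated exons merged, 4.709 kilobases for Ccnd1 and 8.775 for Ccnd3. The order depends on these lengths, and the lengths of the transcripts in use were not measured. The Ccnd1 level includes the 23.4% of exonic bases shared with a gene on the opposite strand. At S2, which belongs to the second set, Ccnd3 held 79.7% and 80.3% of the sum, beside the second-set EPSC shares above.

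**Figure D2:**
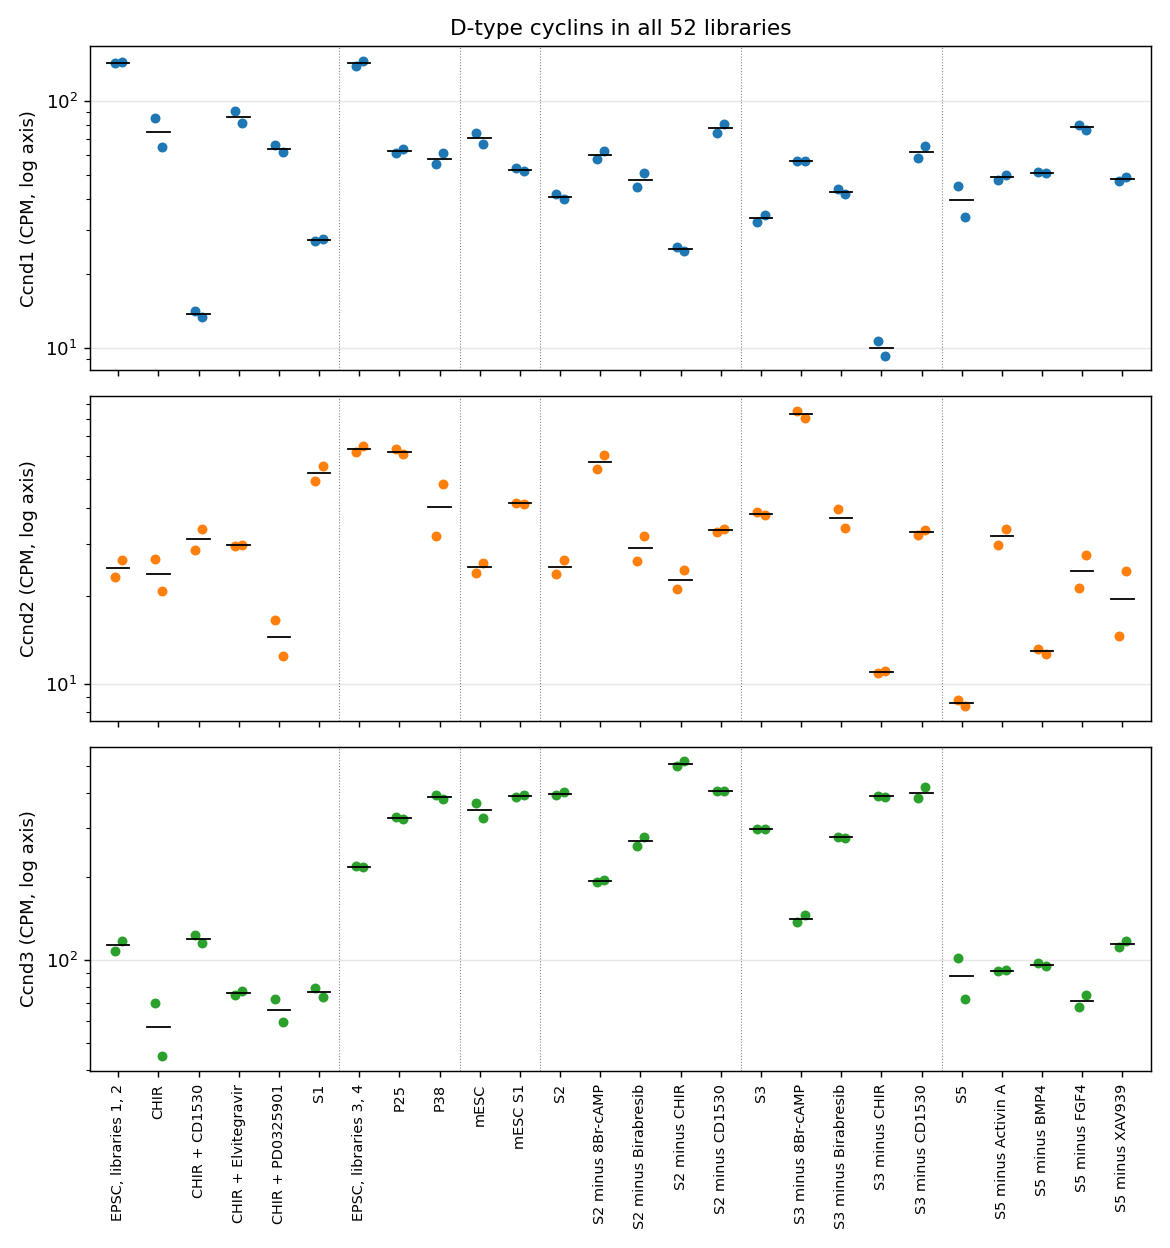
Points are single libraries, lines are means of 2 libraries, and the vertical axes give CPM on a log scale for Ccnd1, Ccnd2 and Ccnd3 in all 52 libraries. Ccnd1 ranges from 9.31 CPM (S3 without CHIR) to 145 CPM (EPSC), and Ccnd2 is lowest in S5.

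The kinases and E2f1 also stood lower in S1. Cdk4 fell from 448 and 446 CPM to 219 and 195 CPM (log2 -1.11 ± 0.092; adjusted p = 6.9e-13; 19.7% of its exonic bases overlap another gene) and E2f1 from 66.2 and 67.3 CPM to 32.7 and 30.8 CPM (-1.07 ± 0.15; adjusted p = 1.2e-07). Cdk2, the partner of cyclin E, stood at 117 and 115 CPM in EPSC libraries 1 and 2, and the difference in S1 (62 and 58.5 CPM; log2 -0.95) missed the fold threshold. Under CHIR alone it fell to 54.6 and 44.4 CPM (-1.23 ± 0.085; adjusted p = 1.2e-14), the only fall called among members in that comparison. Cdk6 stood at 66.3 and 76.3 CPM under CHIR and at 33.3 and 31.5 CPM with CD1530 added (-1.14 ± 0.12; adjusted p = 3.1e-10). Over the 9 G1 genes the median log2 difference of S1 from EPSC was -0.73, with 7 of 9 below 0.

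All 7 replication genes with counts stood lower in S1, and 4 of them were called. Mcm2 stood at 611 and 615 CPM in EPSC libraries 1 and 2 and at 230 and 223 CPM in S1, Mcm5 at 673 and 704 CPM against 252 and 256 CPM. Mcm3 stood at 518 and 536 CPM against 204 and 212 CPM, and Mcm7 at 572 and 592 CPM against 236 and 244 CPM. None of these pairs overlapped. All 4 of these subunits of the replicative helicase fell, by log2 -1.44 ± 0.078 (Mcm2; adjusted p = 4.7e-18), -1.44 ± 0.13 (Mcm5; adjusted p = 2.5e-12), -1.34 ± 0.071 (Mcm3; adjusted p = 2.2e-18) and -1.28 ± 0.082 (Mcm7; adjusted p = 5.4e-16). Mcm4 (339 and 331 CPM against 162 and 174 CPM; log2 -0.99) and Mcm6 (377 and 388 CPM against 238 and 234 CPM; -0.70) differed in the same direction with adjusted p below 0.05 and missed the fold threshold. Cdc6, the loader, was at 86 and 88.1 CPM against 73.6 and 72.4 CPM.

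The median of the 7 replication genes with counts was -1.28 in S1 against EPSC, beside a median of 0 over all tested genes. Cdt1 had 0 counts in all 12 libraries of the first set and 117 to 286 CPM in every library of the second set, so no statement on it is possible for S1, and a first-set value of 0 is not read as absence of the transcript. CHIR alone gave no call among these genes. Its libraries differed widely, with Mcm5 at 437 and 252 CPM. Adding CD1530 to CHIR called none of the 7, with a median log2 difference of -0.49. Both libraries lay below both CHIR libraries for Mcm2, Mcm3, Mcm4, Mcm6 and Mcm7, whereas the pairs overlapped for Mcm5 (log2 0) and Cdc6 (-0.03).

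**Figure D3:**
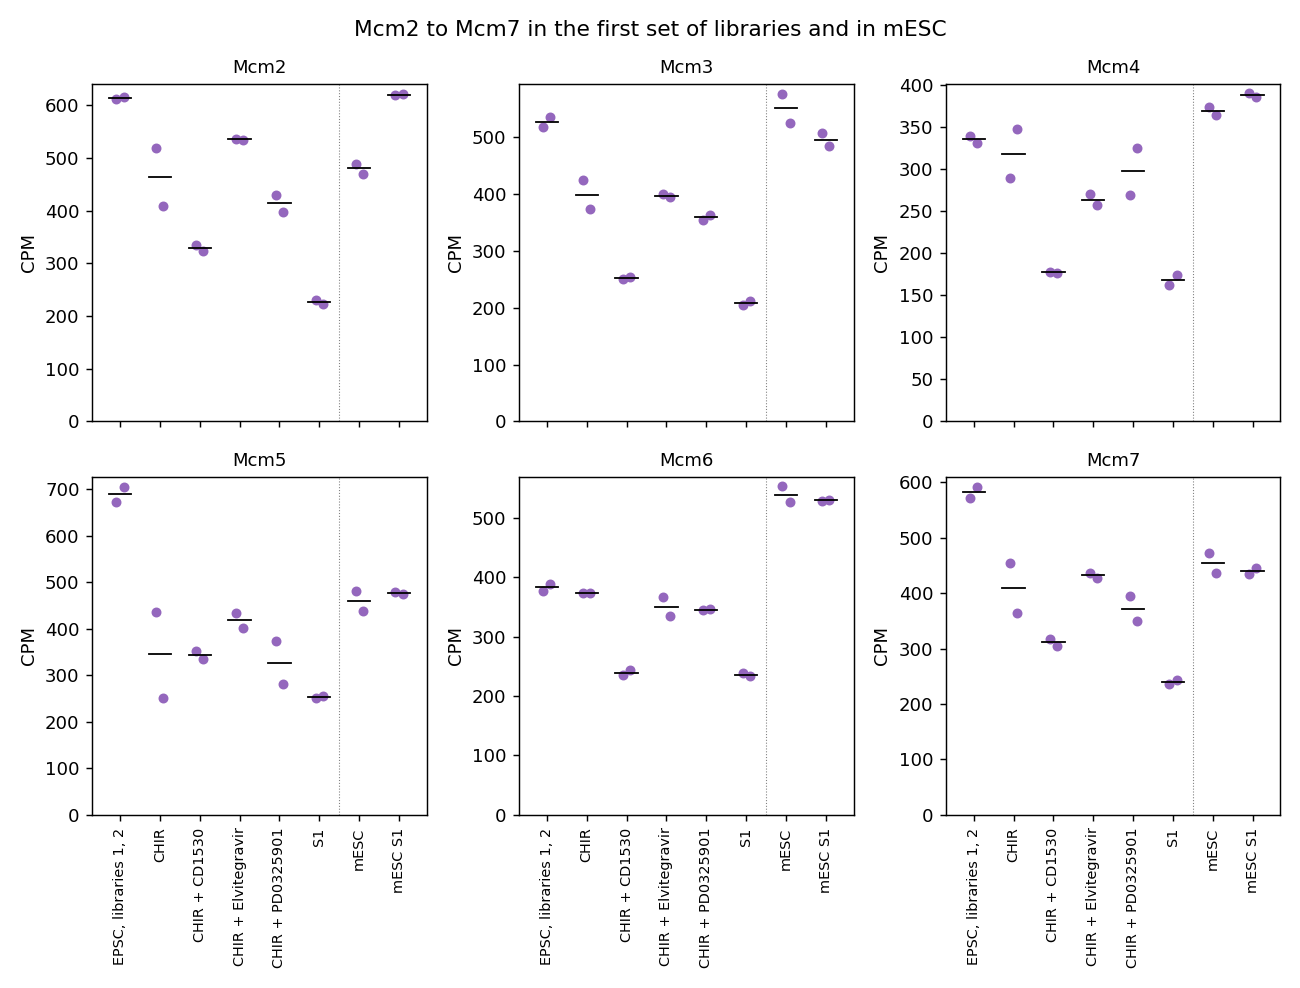
Each panel gives 1 helicase gene in CPM, with points for libraries and lines for means of 2, in the first set (left of the dotted line) and in mESC and mESC-S1 (right). S1 is the lowest group for Mcm2 (230 and 223 CPM), whereas in mESC-S1 Mcm2 stands at 619 and 621 CPM.

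The fall of the helicase genes was not seen when mESCs entered the same medium for the same 2 days. Mcm2 stood at 489 and 470 CPM in mESC and at 619 and 621 CPM in mESC-S1, and Mcm5 at 482 and 439 CPM against 480 and 475 CPM. Of the 8 replication genes none was called, with log2 differences from -0.34 to 0.45. The difference between the responses of the 2 lines was tested directly in 1 model. It was called for Mcm2 (1.81 ± 0.11 log2 higher in mESC; adjusted p = 6.1e-16), Mcm3 (1.19), Mcm4 (1.07), Mcm5 (1.49) and Mcm7 (1.23), and all 7 testable replication genes had an adjusted p below 0.05 in that direction (17.1% of all genes). Of 34 testable members 10 were called by this test (18.7% of all genes), 9 higher (8.7%) and 1 lower (9.97%). The lower 1 was Aurkc, which was nearly silent in EPSC, so its fitted difference is not read as a size. The lines, the starting media and the sets of libraries all differ between the arms, and these cannot be told apart.

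In mESC-S1 against mESC 4 of 35 members were called (22.5% of all genes). Cdk2 fell from 246 and 256 CPM to 101 and 105 CPM (log2 -1.29 ± 0.084; adjusted p = 2.2e-15). Cdk6 rose from 19.5 and 21.8 CPM to 41.8 and 41.8 CPM (1.01 ± 0.12; adjusted p = 5.1e-09; 0.94 without the first mESC library), the reverse of its direction in EPSCs, where S1 stood at 48.2 and 51.9 CPM against 81.1 and 84.6 CPM without a call. The difference of responses was 1.74 ± 0.16 for Cdk6 (adjusted p = 5.9e-11), 1.96 ± 0.15 for Ccnd1 (adjusted p = 4.4e-13) and 1.36 ± 0.21 for E2f1 (adjusted p = 2e-06). Ccne2, an E-type cyclin, rose from 9.8 and 10.6 CPM to 21.7 and 21.7 CPM (1.08 ± 0.16; adjusted p = 6.5e-07), and 17.4% of its exonic bases overlap another gene. Ccne2 in EPSC libraries 1 and 2 was at 8.73 and 7.66 CPM and in S1 at 14.8 and 15.5 CPM, not called.

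Before treatment, mESC against EPSC libraries 3 and 4 called 4 of 35 members (19.6% of all genes), and this comparison crosses the counting line. Cdk6 stood at 19.5 and 21.8 CPM in mESC and at 87.1 and 96.5 CPM in EPSC (log2 -2.15 ± 0.12; adjusted p = 5.2e-17). Ccnd2 (24 and 25.9 CPM against 61.8 and 65 CPM; -1.35 ± 0.17) and Ccnd1 (74.2 and 66.8 CPM against 138 and 145 CPM; -1.01 ± 0.11) were lower as well. Both were near the threshold: Ccnd1 was at -0.94 without the second mESC library, and Ccnd2 at -0.81 with all 4 EPSC libraries pooled. The pairs of these 3 genes did not overlap.

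After 25 passages in totipotency medium 3 G1 genes were lower than in EPSC and Aurkc was higher. P25 against EPSC libraries 3 and 4 called 4 of 35 members (18.7% of all genes), none of them in replication. The median of the 8 replication genes was -0.45, and they differed among themselves. Mcm2 stood at 490 and 479 CPM against 528 and 515 CPM, and Mcm3 at 343 and 342 CPM against 587 and 559 CPM. Cdc6 was higher, at 93.7 and 98.8 CPM against 76.7 and 76 CPM. Ccnd1 fell from 138 and 145 CPM to 61.4 and 63.9 CPM (log2 -1.18 ± 0.11; adjusted p = 2.4e-11) and Cdk6 from 87.1 and 96.5 CPM to 43.2 and 39.6 CPM (-1.15 ± 0.12; adjusted p = 3.5e-10). Cdk2 fell from 165 and 166 CPM to 81.3 and 83.8 CPM, a difference of -1 ± 0.085 at the fold threshold (adjusted p = 2.5e-12) that was -0.77 with all 4 EPSC libraries pooled. Whether the 25-passage and 2-day differences differ from each other was not tested. P38 against P25 called no member (0.339% of all genes), and 1 member had an adjusted p below 0.05 (2.36% of all genes).

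The step from P25 to S2 called 1 of 35 members (16.1% of all genes), and it too crosses the counting line. Ccnd2 stood at 63.2 and 61 CPM in P25 and at 23.7 and 26.5 CPM in S2 (log2 -1.31 ± 0.17; adjusted p = 8e-08). The labels do not say after how many passages the S1 cells were taken to form S2. The mitotic median was -0.02 and the replication median 0.39 on the log2 scale.

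From S2 to S3, 2 of 35 members were called (5.28% of all genes), both mitotic and both falling. Plk1, a kinase that drives entry into and progress through mitosis, stood at 103 and 107 CPM in S2 and at 52.7 and 49.4 CPM in S3 (log2 -1.04 ± 0.21; adjusted p = 0.00038). Mki67, the proliferation marker Ki-67 that coats mitotic chromosomes, stood at 303 and 305 CPM against 142 and 160 CPM (-1.01 ± 0.22; adjusted p = 0.001; -0.93 and not called without the first S3 library). In both genes the S3 pair lay below the S2 pair. Of the 18 mitotic genes 17 had a log2 difference below 0 and 15 an adjusted p below 0.05 (17.4% of all genes), with a median of -0.46, while the replication median was -0.10 and that of G1 genes -0.03.

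Smaller mitotic differences of the same kind included Ttk, a spindle checkpoint kinase (76.6 and 72.3 CPM in S2 against 43.8 and 46.2 CPM in S3), Bub1, another checkpoint kinase (173 and 164 CPM against 112 and 111 CPM), and Cdk1 (155 and 152 CPM against 109 and 101 CPM). None of these 3 passed the fold threshold. Birc5, the survivin subunit of the chromosomal passenger complex, was at 88.7 and 81.6 CPM against 91 and 87 CPM and was the 1 mitotic gene above 0. The S3 libraries are also those with the lowest mitochondrial sum (8980 and 7650 CPM, against 32200 and 29000 CPM in S2), and the part of this in the mitotic result was not tested.

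S3 made without CHIR did not share the low mitotic values. Plk1 stood there at 113 and 115 CPM, higher than S3 by 1.16 ± 0.21 (log2; adjusted p = 4.4e-05), and Mki67 at 289 and 330 CPM, higher by 1.03 ± 0.22 (adjusted p = 0.00041; 0.94 and not called without its second library). All 18 mitotic genes had a log2 difference above 0, with a median of 0.51, and 16 had an adjusted p below 0.05 (25% of all genes). This comparison shares the S3 libraries with the one before, so the direction of both rests on the same pair. The mitochondrial sum was 19500 and 23300 CPM in S3 without CHIR, trophectoderm markers summed to 1150 to 1160 CPM against 470 to 501 CPM in S3, and extraembryonic endoderm markers to 2220 CPM in each library against 780 to 795 CPM. Their part was not tested.

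For Plk1 and Mki67 the other S3 omissions lay between S3 and S3 without CHIR. Plk1 was at 92.6 and 99.3 CPM without 8Br-cAMP, 65.7 and 79.1 CPM without Birabresib and 98.9 and 92.1 CPM without CD1530. Mki67 was at 252 and 254 CPM, 191 and 205 CPM, and 231 and 214 CPM. Every one of these libraries exceeded both S3 libraries in both genes, and none of the 6 differences was called. Other mitotic genes differed from this order. Ccnb1 was at 236 and 243 CPM in S3, 224 and 230 CPM without 8Br-cAMP and 231 and 235 CPM without Birabresib, and Aurka at 79.1 and 75.5 CPM in S3 and 70.2 and 69.4 CPM without Birabresib. The mitochondrial sum of the S3 omission libraries ran from 19500 to 32900 CPM.

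**Figure D4:**
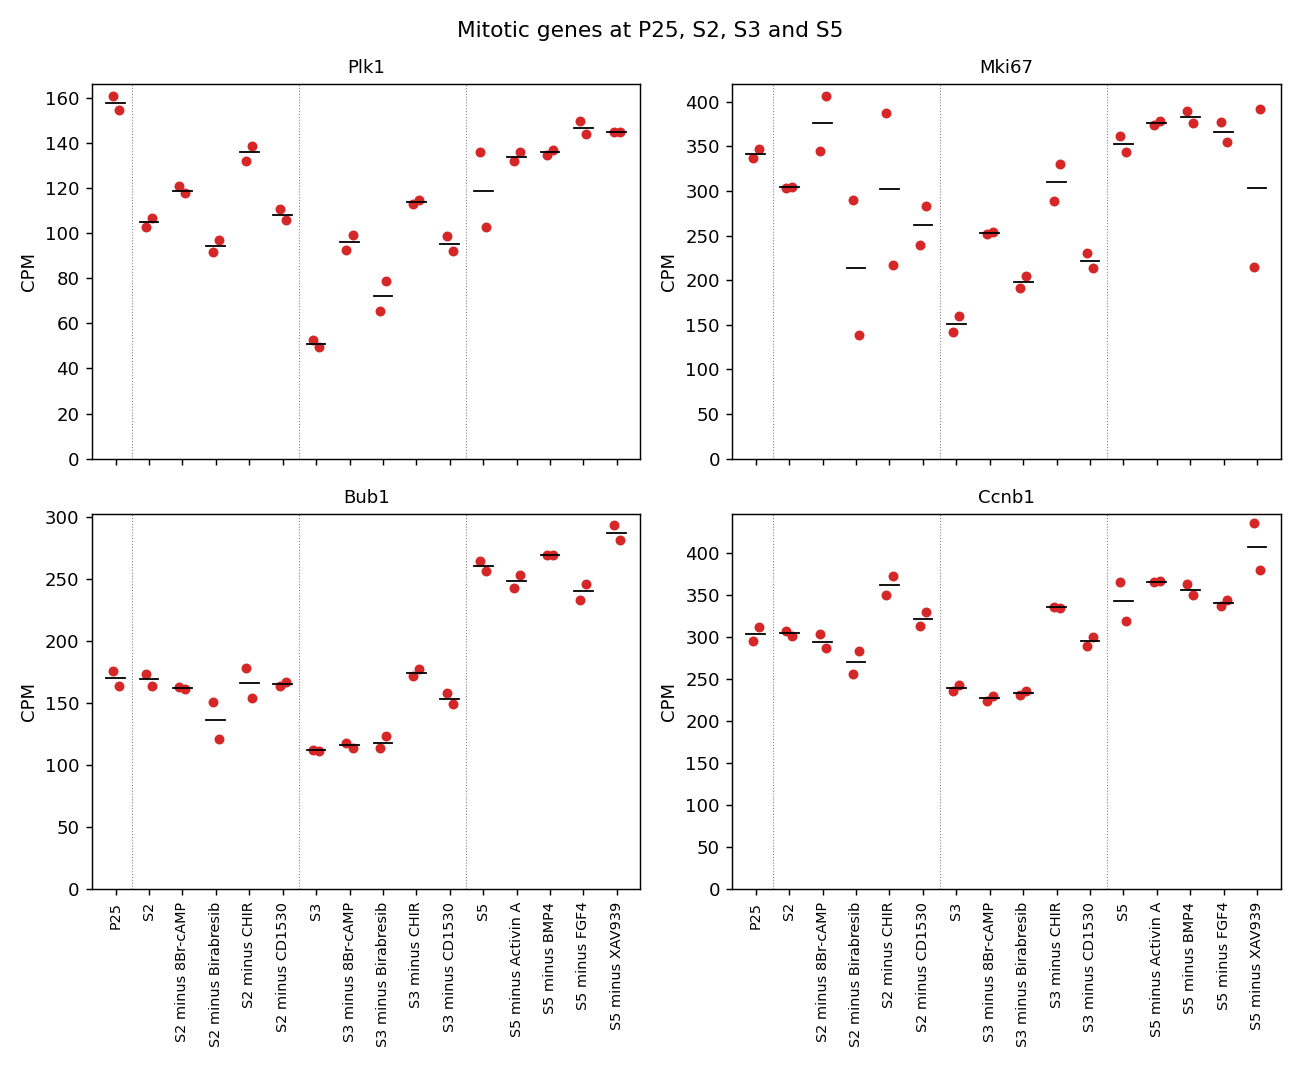
Panels give Plk1, Mki67, Bub1 and Ccnb1 in CPM from an axis starting at 0, with points for libraries and lines for means of 2, at P25, S2, S3, S5 and in their omission groups. Both S3 libraries lie low for Plk1 (52.7 and 49.4 CPM) and Mki67 (142 and 160 CPM), while S3 without CHIR stands at 113 and 115 CPM for Plk1.

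S5 against S3 called 7 of 35 members (22.6% of all genes). Bub1 rose from 112 and 111 CPM to 264 and 256 CPM (log2 1.22 ± 0.15; adjusted p = 1.3e-08). Plk1 stood at 136 and 103 CPM in S5 (1.23 ± 0.21; adjusted p = 7.4e-06) and Mki67 at 362 and 344 CPM (1.23 ± 0.22; adjusted p = 1.8e-05). The mitotic median was 0.53 with 15 of 18 genes above 0, and S3 is again the pair with the low mitochondrial sum (22600 and 24800 CPM in S5).

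Of the 9 G1 genes 3 fell over the same step and none rose past the threshold. Ccnd2 fell from 38.5 and 37.8 CPM to 8.8 and 8.41 CPM, its lowest level in the series (log2 -2.15 ± 0.18; adjusted p = 1.1e-12). Ccnd3 fell from 297 and 296 CPM to 102 and 72.5 CPM (-1.76 ± 0.13; adjusted p = 1.8e-14) and Cdk6 from 52.2 and 56.1 CPM to 22.1 and 20.6 CPM (-1.34 ± 0.12; adjusted p = 4.9e-12). Ccnd1 was at 32.3 and 34.6 CPM in S3 and at 45.2 and 33.8 CPM in S5, with overlapping ranges. Ccne1 was higher in S5, at 125 and 104 CPM against 69.5 and 56.7 CPM (0.86), below the fold threshold. Summed gastrulating epiblast markers were 256 to 303 CPM in S5 and 30.9 to 32.7 CPM in S3, and extraembryonic endoderm markers 4090 to 5210 CPM against 780 to 795 CPM, and the part of these in the cyclin results was not tested.

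Ccnd2 was the member called most often when an agent was left out, in 6 of 12 such comparisons. Ccnd3 and Aurkc were called in 2 each, and Ccnd1, Cdk6, Plk1 and Mki67 in 1 each. Without 8Br-cAMP, Ccnd2 was higher and Ccnd3 lower at both stages. Ccnd2 stood at 54.1 and 60.3 CPM against 23.7 and 26.5 CPM in S2 (log2 1.19 ± 0.17; adjusted p = 4.7e-06) and at 85.4 and 80.7 CPM against 38.5 and 37.8 CPM in S3 (1.12 ± 0.17; adjusted p = 2.3e-06). Ccnd3 stood at 191 and 195 CPM against 393 and 403 CPM in S2 (-1.04 ± 0.12; adjusted p = 1.8e-07) and at 137 and 145 CPM against 297 and 296 CPM in S3 (-1.07 ± 0.12; adjusted p = 1.7e-08). No pair overlapped. These were the only 2 members called without 8Br-cAMP at each stage, where 1.92% of all genes were called at S2 and 6.63% at S3. Per kilobase the share of Ccnd3 was 42.3% and 44.4% in S3 without 8Br-cAMP, against 75.5% and 74.8% in S3.

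Without CHIR, the cyclins Ccnd1 and Ccnd2 were lower at S3, by more than at S2. At S3, Ccnd1 was at 10.7 and 9.31 CPM without CHIR against 32.3 and 34.6 CPM (log2 -1.74 ± 0.12; adjusted p = 1.5e-14), and Ccnd2 at 10.9 and 11.1 CPM against 38.5 and 37.8 CPM (-1.79 ± 0.18; adjusted p = 2.8e-10). At S2 the values without CHIR were 25.6 and 24.7 CPM against 41.8 and 39.9 CPM for Ccnd1 (-0.70) and 21.1 and 24.4 CPM against 23.7 and 26.5 CPM for Ccnd2, and neither was called. The test of the stage difference itself gave -1.04 ± 0.16 for Ccnd1 (adjusted p = 3.6e-05) and -1.65 ± 0.24 for Ccnd2 (adjusted p = 2.3e-05). In all, 4 of 35 members were called in that test (2.43% of all genes), the others being Mki67 (1.04; 0.69 without the second S2 library lacking CHIR) and Aurkc (1.08; 0.91 without the first such library). The Mki67 and Aurkc calls were each lost in 7 of 14 alternative fits, all 7 of them fits that left out 1 library. Ccnd1 was at -0.93 without the second S3 library lacking CHIR.

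Cdk6, their kinase partner, was lower too at S3 without CHIR, at 26.3 and 27.3 CPM against 52.2 and 56.1 CPM (-1.02 ± 0.12; adjusted p = 1.1e-08; -0.95 without the second S3 library). Ccnd3 stood at 392 and 388 CPM against 297 and 296 CPM, a difference below the fold threshold. Ccnd3 made up 92.9% and 93.3% of the D-type cyclin level per kilobase in S3 without CHIR. In that comparison 5 of 35 members were called (9.16% of all genes), and at S2 without CHIR none was (5.07%). The labels say that S3 omission groups were S2 aggregates kept 1 day without the agent, and do not say whether the S2 stage also lacked it.

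Birabresib was the agent whose omission called no member at either stage (2.98% of all genes at S2 and 6.21% at S3), with Ccnd1 at 44.7 and 51.2 CPM in S2 without it and 43.9 and 41.9 CPM in S3 without it. All 8 replication genes were below 0 at both stages, with medians of -0.24 and -0.23 and no call. Without CD1530, Ccnd1 was at 74.3 and 80.4 CPM against 41.8 and 39.9 CPM in S2 and at 58.6 and 65.7 CPM against 32.3 and 34.6 CPM in S3, with both pairs apart and neither called. The called member there was Aurkc, in 1 of 35 at S2 (2.33% of all genes) and 1 of 35 at S3 (5.79%).

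In S5 only Ccnd2 was called when an agent was left out. From 8.8 and 8.41 CPM in S5 it stood at 29.9 and 33.8 CPM without Activin A (log2 1.89 ± 0.18; adjusted p = 1.9e-09; 1.12% of all genes called), at 21.2 and 27.5 CPM without FGF4 (1.5 ± 0.18; adjusted p = 3.8e-08; 4.65%) and at 14.6 and 24.3 CPM without XAV 939 (1.17 ± 0.18; adjusted p = 1.5e-05; 2.14%). Each omission library exceeded both S5 libraries. The XAV 939 pair was uneven, and without its higher library the difference was 0.76 and the call was lost. Without BMP4, Ccnd2 was at 13.2 and 12.7 CPM and no member was called (0.0559%). These 4 comparisons share the S5 libraries. Ccnd1 was at 79.9 and 76.4 CPM without FGF4, above S5 at 45.2 and 33.8 CPM by 0.98 on the log2 scale and not called.

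Aurkc, the Aurora kinase best known from germ cells and the early embryo, where it works in the chromosomal passenger complex, had the widest fold range of the 35 genes apart from Cdt1, which had 0 counts in the whole first set. In EPSC it was nearly silent: library 1 held 4 counts (0.0888 CPM) and libraries 2, 3 and 4 held 0. It stood at 3.14 and 3.79 CPM in S1 and at 1.73 and 1.2 CPM under CHIR alone, and both rises were called (adjusted p = 5.7e-14 and 1.3e-09). The fitted log2 values, 6.13 and 4.92, rest on those 4 EPSC counts and are not read as sizes. In P25 it stood at 18.9 and 20.2 CPM, at least 243-fold higher than EPSC libraries 3 and 4, taking 3 counts over the pair as the floor.

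In the other line Aurkc was present before treatment. It stood at 4.26 and 5.28 CPM in mESC, at least 59.2-fold above the same floor in EPSC, and at 39.7 and 42.2 CPM in mESC-S1 (log2 3.10 ± 0.24; adjusted p = 2e-13), the highest level of the series. Per kilobase Aurkc made up 24% and 25.7% of the 3 Aurora kinases in mESC-S1 and 13.3% and 14.5% in P25. The summed 2-cell markers moved along with it in part, with 0.459 to 0.544 CPM in mESC, 137 to 146 CPM in mESC-S1 and 231 to 236 CPM in P25. S1 had the highest 2-cell sum (1250 to 1330 CPM) and less Aurkc than any of P25, P38 and S2, so the orders differ.

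From S2 on Aurkc was lower. It stood at 13.1 and 13.9 CPM in S2, 9.55 and 8.64 CPM in S3 and 2.65 and 2.69 CPM in S5 (S5 against S3, log2 -1.77 ± 0.24; adjusted p = 1.1e-07). Leaving out CD1530 gave 3.68 and 3.23 CPM at S2 (-1.97 ± 0.23; adjusted p = 2.2e-07) and 2.49 and 1.83 CPM at S3 (-2.08 ± 0.24; adjusted p = 4.2e-08), both pairs below the complete medium. The 2 stages did not give a called difference in that effect. In the test of stage difference for 8Br-cAMP, Aurkc was the 1 called member (1.29 ± 0.31; adjusted p = 0.0096; 1.9% of all genes; adjusted p = 0.053 without the second S2 library lacking 8Br-cAMP), with 8.02 and 7.21 CPM at S2 and 12 and 13 CPM at S3 without it. The same test called none for Birabresib (0.87%) and none for CD1530 (0.962%).

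**Figure D5:**
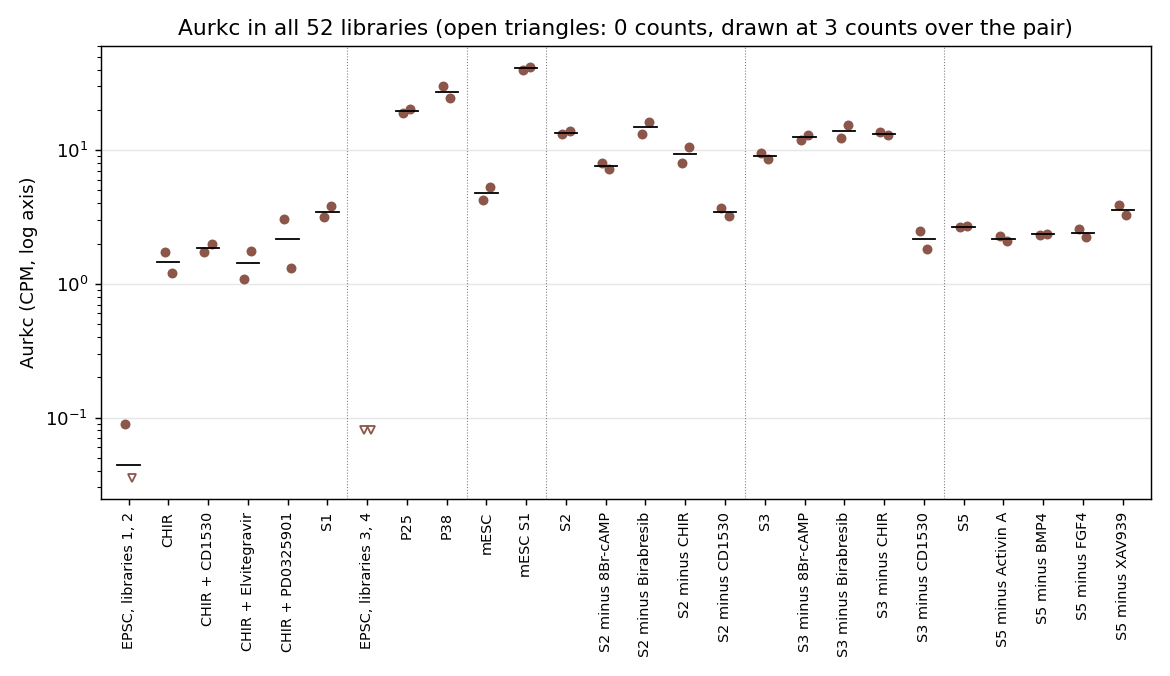
Points are single libraries and lines are means of 2, and the axis gives Aurkc in CPM on a log scale over all 52 libraries. Open triangles mark libraries with 0 counts, drawn at the level of 3 counts over the pair. EPSC lies at the bottom and mESC-S1 at the top with 39.7 and 42.2 CPM.

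Besides Aurkc, 2 of the 18 mitotic members were called on entry into S1. Ccnb1, the cyclin that activates Cdk1 at mitosis (526 and 515 CPM in EPSC libraries 1 and 2 against 259 and 246 CPM), and Aurka, the kinase of spindle poles (194 and 190 CPM against 92.3 and 85.5 CPM), fell past the threshold, by -1.05 ± 0.097 and -1.11 ± 0.094 on the log2 scale (adjusted p = 1.3e-11 and 1.2e-12). Mki67 stood at 391 and 495 CPM in S1 against 276 and 302 CPM and Tpx2, a spindle assembly factor, at 304 and 302 CPM against 281 and 297 CPM, neither called. Top2a, the topoisomerase that untangles sister chromatids, stood at 492 and 558 CPM against 933 and 969 CPM, below the fold threshold. The mitotic median was -0.46 with 14 of 18 genes below 0 and 4 above. With all 4 EPSC libraries pooled, Ccnb1 was at -0.91 and Aurka at -0.97, and neither was called.

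Bub1 was the 1 mitotic gene called when CD1530 joined CHIR, at 122 and 130 CPM against 230 and 395 CPM (log2 -1.31 ± 0.15; adjusted p = 3.9e-09). The CHIR pair was among the most uneven of the series, with Plk1 at 155 and 64.9 CPM and E2f1 at 51.8 and 30.2 CPM. Without the CHIR library that was higher in Bub1 the difference was -0.84 and not called.

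In all, 16 genes were called in no comparison, Cdt1 with its 0 counts in the first set among them. Ccne1, the main E-type cyclin here (at least 83.2% of the E-type cyclin level per kilobase in every library), ran from 56.7 CPM in S3 to 274 CPM in CHIR plus PD0325901 with a median of 124 CPM, and its largest difference was 0.96 (S3 without CHIR against S3). Cdc6 ran from 61.5 to 133 CPM and Mcm6 from 234 to 553 CPM. Among the mitotic genes, Aurkb, the kinase of the chromosomal passenger complex, ran from 52.9 CPM in S1 to 141 CPM in mESC, and Cdca8, another subunit of that complex, from 86.8 to 168 CPM. Bub1b and Cdc20, which act in the spindle checkpoint, ran from 132 to 285 CPM and from 161 to 405 CPM, Ccnb2 from 83.9 to 184 CPM, Ccna2 from 106 to 221 CPM and the spindle motor Kif11 from 90.1 to 226 CPM. For 6 of the 12 mitotic genes in this group the lowest library was 1 of S3 without Birabresib, and for 4 it was 1 of S3.

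A count of 0 called members did not mean that no member had a small p. With edgeR, an unadjusted p below 0.05 was found for 14 members with Elvitegravir added to CHIR (18.1% of all genes), 10 with PD0325901 added (20.6%), 23 in S1 against CHIR plus CD1530 (36.3%) and 12 in P38 against P25 (11.9%). It was found for 18 members without Birabresib at S2 (22.7%) and 15 at S3 (28.9%), for 15 without CHIR at S2 (24.9%) and for 3 without BMP4 in S5 (8.94%). In the tests of stage difference it was found for 7 members with Birabresib (13.7%) and 14 with CD1530 (15.2%). After adjustment 0 members remained below 0.05 for Elvitegravir (0.012% of all genes) and BMP4 (0.411%). The same held for the tests of stage difference with Birabresib (2.03%) and CD1530 (2.59%). The adjusted counts were 2 for PD0325901 (10.8% of all genes), 19 for S1 against CHIR plus CD1530 (28.9%) and 1 for P38 (2.36%). Without Birabresib they were 7 at S2 (9.26%) and 10 at S3 (17.6%). Without CHIR at S2 the count was 9 (14.3%). DESeq2 called none in these comparisons except 1 in S1 against CHIR plus CD1530.

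Regulators outside the 35 genes were read from 5 lists of 99 genes in all. Their counts in S1 against EPSC stand beside the 27.8% of all genes called there, and none of them is a result about its list. In S1 against EPSC, 3 of 13 other cell cycle transcription factors fell and none rose. Mybl2, the B-Myb activator of late cell cycle genes, fell from 915 and 961 CPM to 161 and 150 CPM (log2 -2.59 ± 0.16; adjusted p = 2.2e-16), the largest called change of the 5 lists in that comparison, and was at 241 and 131 CPM under CHIR alone (-2.33 ± 0.16; adjusted p = 1e-14). E2f4 (-1.67) and E2f2 (-1.54) fell too. Of 31 other replication genes with counts 6 fell and none rose, among them Mcm10 (-1.44), Orc5 (-1.28) and Pold1 (-1.27), a polymerase subunit. Of 28 other mitotic genes with counts 2 fell and none rose. Of 13 checkpoint and CDK activation genes with counts 3 were called. Cdc25b, a phosphatase that activates Cdk1, rose from 16.1 and 15.3 CPM to 70.3 and 66.3 CPM (2.12 ± 0.12; adjusted p = 4.7e-18), while Chek2 (-1.65) and Skp2 fell (-1.29). Of 10 CDK inhibitors and pocket proteins 3 rose, Cdkn1c (1.29) and Cdkn2b (1.24) among them. Of the exonic bases of Cdkn1c 30.7% also lie in a gene on the opposite strand. Cdkn2b had a mean of 10.7 CPM in S1 and of 4.55 CPM in the first-set EPSC libraries. The second-set EPSC libraries had a mean of 11.9 CPM, above S1, so the rise of Cdkn2b depends on the EPSC pair used.

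At the aggregate stages the CDK inhibitor Cdkn1a (p21) was highest in S3. It stood at 364 and 362 CPM in S2, at 517 and 501 CPM in S3 and at 76.6 and 69.6 CPM in S5 (S5 against S3, log2 -2.80 ± 0.14; adjusted p = 3.9e-19). Without CHIR it stood at 151 and 173 CPM at S2 (-1.16 ± 0.13; adjusted p = 9.5e-09) and at 139 and 139 CPM at S3 (-1.88 ± 0.13; adjusted p = 5.6e-14). Among S2, S3 and S5 in complete medium, the S3 libraries held the highest Cdkn1a pair and the lowest Plk1 pair. From P25 to S2, a step that crosses the counting line, Cdkn1a also rose, from a mean of 175 CPM to 363 CPM (1.05). No mitotic member was called at that step. A link between Cdkn1a and the mitotic genes was not tested. Cdkn1c (p57), another inhibitor, was at 1.04 and 0.715 CPM in S3 and 13.1 and 11.6 CPM without CHIR (3.81 ± 0.28; adjusted p = 2.8e-13).

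E2f8, an atypical E2F that represses E2F targets, stood at 40.7 and 39.2 CPM in P25, 7.27 and 8.91 CPM in S2, 4.92 and 5.74 CPM in S3 and 47 and 41.8 CPM in S5 (S5 against S3, log2 3.06 ± 0.17; adjusted p = 1.5e-17). It was higher than S3 in each S3 omission: 12.6 and 12.9 CPM without 8Br-cAMP (1.26), 10.5 and 10.9 CPM without Birabresib (1.01), 21.9 and 25.7 CPM without CHIR (2.16) and 16.6 and 18.4 CPM without CD1530 (1.72), all 4 called against the shared S3 pair. Of the 30 other mitotic genes 2 rose at S3 without CHIR (9.16% of all genes called). They were Ube2c (1.26), a ubiquitin-conjugating enzyme of the anaphase promoting complex, and Hmmr (1.08). Both also rose in S5 against S3 (1.12 and 1.24), whereas Ckap2 of the same list fell there, from a mean of 123 CPM to 59.4 CPM (-1.05).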

How the data were processed

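Poly(A) RNA libraries were sequenced in pairs of reads. The authors deposited raw counts per gene for all 52 libraries; per the submitters' processing notes, Trimmomatic 0.39, STAR 2.7.10b and featureCounts 2.0.6 were used with the mm10 build. Annotation, strand setting and pair handling: not given in the sources used here. Counts were scaled by TMM and given as CPM. Genes were filtered with filterByExpr and tested in R 4.3.3 with edgeR 4.0.16 (limma 3.58.1), 1 mean per group and the EPSC libraries as 1 pair per set, all groups sharing the spread. Adjusted p-values are Benjamini-Hochberg over the 25056 tested genes. The procedure was tested on simulated data. The 35 members and the 5 regulator lists were chosen with earlier results of these data known. Named outside the members were up to 3 called genes per list and comparison, with at least 5 CPM in a compared group. The 4 tests of stage difference were added after the data were seen. Gene coordinates and exon overlaps come from GENCODE M21 on GRCm38, promoters from RefSeq. Alternatives were RLE scaling, no filter, DESeq2 1.42.0, a fit within each family of libraries, a replicate block, halved counts where low counts were mostly even, pooled EPSC and leaving out each library. Intervals of counting error play no part in these tests. Replicate numbers were not used to pair the libraries, although replicate differences correlated in CHIR plus PD0325901 against CHIR (0.43).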

Additional observations from a re-analysis of the deposited data

Results flagged for a closer look

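The response to totipotency medium differed between the lines by a test of the difference itself in 10 members, given as log2, the change in mESC minus that in EPSC. It was higher in mESC for Ccnd1 (1.96), Mcm2 (1.81), Cdk6 (1.74), Mcm5 (1.49), E2f1 (1.36), Mcm7 (1.23), Mcm3 (1.19), Mcm4 (1.07) and Plk1 (1.04). The Plk1 value was 0.98, and not called, under RLE, under DESeq2 and with all 4 EPSC libraries pooled. For Aurkc the fitted value was -3.03. It rests on 4 and 0 counts in the EPSC libraries and is not read as a size. Per kilobase, Aurkc rose from 2.8 and 3.46 to 26.1 and 27.7 CPM in mESC. In EPSC it rose from 0.0583 and 0 to 2.06 and 2.49 CPM. Line, starting medium and set differ together between the arms.

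The effect of leaving out an agent differed between S3 and S2 by a test of the difference in 5 cases. For CHIR these were Ccnd1 (-1.04), Ccnd2 (-1.65), Mki67 (1.04) and Aurkc (1.08), and for 8Br-cAMP Aurkc (1.29), all as log2 at S3 minus S2. Over 14 alternative fits, the CHIR calls of Mki67 and Aurkc were each lost in 7 and that of Ccnd1 in 4. The Ccnd2 call was lost in none, and the Aurkc call for 8Br-cAMP in 1.

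One EPSC library stood apart in Aurkc: library 1 held 4 counts and the other 3 held 0, so its gap to the others spans the whole range of the group (ratio 1). With 3 of 4 values at 0 that ratio is 1 whatever the last value is, so those 4 counts alone set it. Chance flags about 1 in 20 groups, and all 35 members were looked at in this way.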

How the results depend on the processing

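Of 68 calls on single members, 50 held under every alternative, 18 were lost under at least 1, and none reversed. The number of called members stayed within 1.5 times under no filter, the replicate block and halved counts in all 30 comparisons, and in 28 under RLE and DESeq2. The replicate block kept all 68 calls (largest adjusted p = 0.042, edgeR). Differences between replicate numbers correlated above 0.1 between the 2 groups in 1 of 25 comparisons, with a range from -0.03 to 0.43. The 0.43 was that of CHIR plus PD0325901 against CHIR, and a paired test of that comparison was not run. In the other comparisons the numbers gave no sign of pairing. With all 4 EPSC libraries pooled, CHIR against EPSC had 4 called members in place of 2. S1 against CHIR plus CD1530 had 1 under RLE and 1 under DESeq2 in place of 0, and S3 against S2 had 1 under RLE, DESeq2 and a fit within its own family in place of 2. Leaving out 1 library at a time, CHIR against EPSC ranged from 2 to 8 (8 without the first CHIR library), CHIR plus CD1530 against CHIR from 2 to 5 (2 without the second CHIR library), S1 against CHIR plus CD1530 from 0 to 2, S3 against S2 from 1 to 2 (1 without the first S3 library) and S5 without FGF4 from 1 to 2. Ranges from 0 to 1 were found for CHIR plus Elvitegravir (1 without the first CHIR library), CHIR plus PD0325901 (1 without its second library), S2 without Birabresib (1 without its first library), S5 without XAV 939 (0 without its second library) and the stage differences for 8Br-cAMP and Birabresib. The stage difference for CHIR ranged from 1 to 3, below the 4 with all libraries in each of 8 refits. S1 against EPSC kept 11 to 12. The difference of responses for Plk1 had an adjusted p of 0.13 in a fit within its own family of libraries. A lone library of a pair is assumed to vary like the other groups. With 2 libraries a group, a missed call does not show that values were alike.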
